A study of Arabidopsis thaliana with 8 samples.

Results

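Binding of CONSTANS (CO) was described at 9 genes of flavonoid biosynthesis, 5 enzymes and 4 MYB transcription factors. The enzymes were chalcone synthase (CHS, AT5G13930), chalcone isomerase (CHI, AT3G55120), flavanone 3-hydroxylase (F3H, AT3G51240), flavonol synthase 1 (FLS1, AT5G08640) and dihydroflavonol 4-reductase (DFR, AT5G42800). The regulators were MYB11 (AT3G62610), MYB12 (AT2G47460), MYB111 (AT5G49330) and PAP1 (AT1G56650, also MYB75). The genes were listed by locus, out of 27444 nuclear protein-coding genes, and every peak whose summit lay in a listed gene or within 3000 bp of it was taken. That gave 6 of the 3306 peaks of the 35S:CO list, 6 of the 3214 peaks of the filtered list and 0 of the 380 peaks of the co-10 list. The peaks come from ChIP-seq, in which DNA crosslinked to CO was precipitated with an anti-CO antibody and sequenced, on Arabidopsis thaliana seedlings grown under long days for 7 days. In 35S:CO seedlings CO is overproduced from the cauliflower mosaic virus 35S promoter, and co-10 seedlings, which carry a mutant co allele, were the control. Each genotype had 2 immunoprecipitated samples and 2 inputs, but the deposited peak lists are by genotype and not by sample, and their peak names carry the word "both". They are a list for each genotype and a filtered list, which is a subset of the 35S:CO list. No value below therefore has a spread between replicates, and no difference between the genotypes or between genes has a replicate check. Constitutive overproduction also places CO in cells and at times where the native promoter may not.

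Flavonoids are phenylpropanoid pigments and sunscreens. CHS joins a coumaroyl unit to malonyl units, CHI closes the ring and F3H hydroxylates the product to a dihydroflavonol. At that branch point FLS1 makes flavonols, while DFR opens the route to anthocyanins and proanthocyanidins. MYB11, MYB12 and MYB111 are closely related activators of the early genes CHS, CHI, F3H and FLS1. PAP1 activates late genes such as DFR in a complex with bHLH proteins and the WD40 protein TTG1. In seedlings, light switches on the early genes through factors such as HY5. CO binds DNA together with NF-Y subunits and is best known as the activator of the florigen gene FT in long days.

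All 5 enzyme genes had a CO peak, as did 1 of the 4 regulators, MYB12. MYB11, MYB111 and PAP1 had none. The enzyme peaks had a fold enrichment over the caller's background between 3.74 and 5.45, where the median of nuclear filtered peaks was 5.45. CHI, at 3.74, stood above only 12.6% of those peaks. MYB12 stood higher, at 11.0. Over all nuclear protein-coding genes, 19.3% had a 35S:CO summit in the gene or within 3000 bp, against 6 of 9 here (66.7%). The filtered list lacks 92 peaks of the 35S:CO list, each of which overlapped a co-10 peak. In it the share was 19.2% of all genes and again 6 of 9. With a co-10 summit, 0.619% of all genes were counted and 0 of the 9. These shares are descriptions and were not tested, and the 9 genes were chosen with earlier results of these data known.

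**Figure D1:**
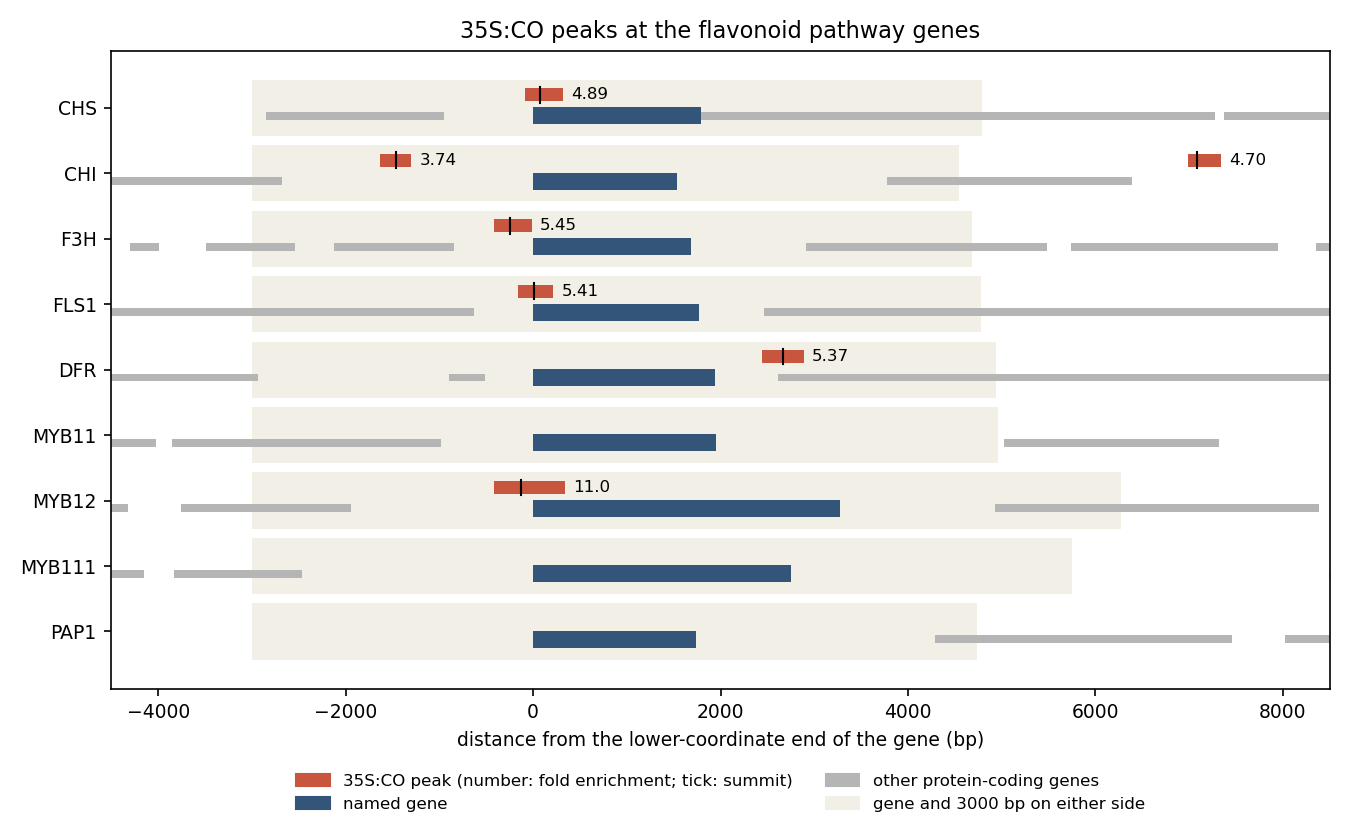
Peaks of the 35S:CO list (red, with the summit as a tick and the fold enrichment as a number) around each of the 9 genes (blue), in bp from the lower-coordinate end of the gene. Shading marks the gene and 3000 bp on either side, and grey bars mark other protein-coding genes. Summits lie within 243 bp of the lower-coordinate end of CHS, F3H, FLS1 and MYB12, while MYB11, MYB111 and PAP1 have empty windows.

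The CHS peak spanned chr5:4488386-4488790 and was 405 bp wide. Its summit, at position 4488549, lay inside the gene, 73 bp from the lower-coordinate end. Fold enrichment was 4.89, with 19 fragments piled up over a background of 3.09. The pileup is the number of fragments over the summit, recovered here from the deposited values. An exact Poisson 95% interval on the pileup, which covers counting error only, ran from 11.4 to 29.7 fragments. The −log10 q of the peak was 7.64. CHS thus had a peak near the median of the filtered list, with 42.0% of the nuclear filtered peaks below it in fold enrichment.

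F3H had a peak at chr3:19024774-19025175, 402 bp wide, with the summit at position 19024949. The summit lay outside the gene, 243 bp from its lower-coordinate end, and the whole peak lay outside the gene on that side. Fold enrichment was 5.45, with a pileup of 19 on a background of 2.67, with a −log10 q of 8.70. Of the nuclear filtered peaks, 50.2% were weaker than the F3H peak.

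The peak at FLS1 covered the lower-coordinate end of the gene. It spanned chr5:2803677-2804047, 371 bp, and its summit at position 2803844 lay 11 bp inside the gene. Fold enrichment was 5.41, with a pileup of 22 on a background of 3.25, with a −log10 q of 9.69. CHS, F3H and FLS1 were each the protein-coding gene nearest to their summit, and their fold enrichments lay between 4.89 and 5.45.

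CHI, the remaining early enzyme, had the weakest and the most distant of the 6 peaks. It spanned chr3:20428422-20428760, 339 bp, with the summit at position 20428594. That summit was 1465 bp from CHI and 1210 bp from ABCG18 (AT3G55110), an ABC transporter gene, which was therefore nearer. Fold enrichment was 3.74, with a pileup of 14 on a background of 3.01, with a −log10 q of 4.12. In the filtered list, 12.6% of nuclear peaks were weaker. A further peak lay 5547 bp from CHI on its other side, outside the 3000 bp limit, with a fold enrichment of 4.70. It was the peak closest to the limit from outside among the 9 genes, as the first CHI peak was from inside.

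DFR had a peak at chr5:17166532-17166981, 450 bp wide. Its summit at position 17166757 was 725 bp beyond the higher-coordinate end of DFR and lay inside the neighbouring gene IPK1 (AT5G42810), which encodes an inositol polyphosphate kinase. Fold enrichment was 5.37, with a pileup of 23 on a background of 3.47, with a −log10 q of 9.96. The DFR peak was close in fold enrichment to those of F3H and FLS1, but its summit was nearer to IPK1 than to DFR. The gene table used has no strand, so whether the summit lay before or after DFR was not determined. For the other genes likewise, the lower-coordinate end may be the start or the end of the gene.

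Among the regulators, MYB12 had the strongest and widest of the 6 peaks. It spanned chr2:19475906-19476664, 759 bp, and covered the lower-coordinate end of the gene, with the summit at position 19476202, 124 bp outside. Fold enrichment was 11.0, with a pileup of 41 on a background of 2.80 (exact Poisson 95% interval of the pileup 29.4 to 55.6, counting error only). The −log10 q was 30.8. By fold enrichment it ranked 513 among the 3210 nuclear filtered peaks, above 84.0% of them, and it was wider than 84.1% of them. MYB12 was the nearest protein-coding gene to this summit. Counting each gene by its strongest filtered peak within 3000 bp, 3.95% of all nuclear protein-coding genes had a peak at least as strong as that of MYB12.

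The other regulators had no CO peak within 10000 bp. MYB111 was 12936 bp from its nearest 35S:CO summit, a weak peak with a fold enrichment of 3.17 whose summit lay inside BXL1. MYB11 was 29167 bp from its nearest summit, which had a fold enrichment of 11.6. PAP1 was 12452 bp from its nearest 35S:CO summit, at a fold enrichment of 2.90. A co-10 peak was nearer to PAP1, at 11044 bp and with a fold enrichment of 5.74, and both summits lay in the annotated pseudogene AT1G56675. The 3 closely related flavonol MYB genes thus differed, with a peak at MYB12 and none within 10000 bp of MYB11 or MYB111.

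The 6 peaks were compared with each other through counting error, since no replicate spread could be had. Holding each background fixed, the Poisson interval of fold enrichment was 8.0 to 14.9 for MYB12. For the enzymes it was 3.04 to 7.50 at CHS, 2.16 to 6.11 at CHI, 3.39 to 8.36 at F3H, 3.48 to 8.08 at FLS1 and 3.49 to 7.95 at DFR. The MYB12 interval lay above those of CHS, CHI and DFR and overlapped those of F3H and FLS1. The highest enzyme value was lower by a ratio of 2.02. Each summit is the highest point of a called peak, and the intervals do not allow for that selection. The intervals of the 5 enzymes all overlapped, so no order among the enzymes was resolved at this depth. The backgrounds of the 6 peaks lay between 2.67 and 3.47 fragments, a range like the interquartile range of all nuclear 35S:CO peaks, 2.73 to 3.49.

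The enzyme peaks were 339 to 450 bp wide, all narrower than the median of 471 bp over nuclear 35S:CO peaks, and MYB12 was wider at 759 bp. Summits lay inside the gene at CHS and FLS1 and outside it at CHI, F3H, DFR and MYB12. All 6 peaks were present in the filtered list with the same coordinates and fold enrichment as in the 35S:CO list.

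Taking 1 value per gene, that of its strongest peak, the 6 genes with a peak had a median fold enrichment of 5.39. Over the 5257 nuclear protein-coding genes with a filtered peak in reach it was 6.15. The difference between the medians was not tested.

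No co-10 peak overlapped any of the 6 peaks. That follows from their place in the filtered list, where 0 of 3214 peaks overlapped a co-10 peak. Of all 3306 35S:CO peaks only 92 overlapped one, so nothing particular to these genes is read from it. The co-10 list also had a lower background. The caller's background was lower in co-10 by a ratio of 0.530, the median over 47 pairs of overlapping peaks whose background did not exceed 10 fragments in either list. With pileup and background both multiplied by that ratio, the −log10 p of the MYB12 peak would be 18.8, against 33.5 as deposited. It would be 7.26 at DFR, 7.12 at FLS1, 6.57 at F3H, 5.96 at CHS and 3.91 at CHI. The lowest −log10 p in the nuclear co-10 list was 4.28. Scaled in this way, 5 of the 6 peaks would still have reached it, near the 80.2% of all nuclear 35S:CO peaks. The CHI peak would not, so a co-10 peak no stronger than it may have gone uncalled. That cannot be decided here, because the caller's threshold is not known and 4.28 is only the lowest value seen. The 35S:CO list held nuclear peaks down to a −log10 p of 3.23. The ratio is one of backgrounds, since sequencing depth is unknown. With the ratio of the median backgrounds, 0.356, the same count was 5, against 60.5% of all nuclear 35S:CO peaks. CHS, at 4.48, came closest to the limit. These counts were not tested. The genotype and the efficiency of the immunoprecipitation cannot be told apart from pooled lists.

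**Figure D2:**
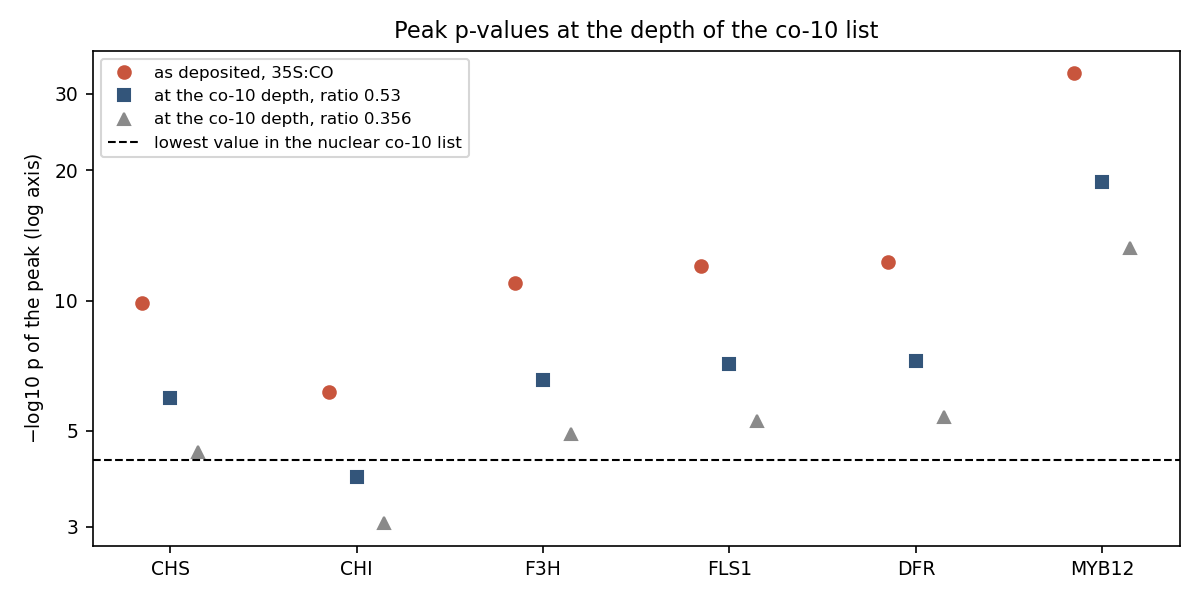
The −log10 p of each of the 6 peaks (log axis) as deposited for 35S:CO (circles) and after scaling pileup and background by a ratio of 0.530 (squares) or 0.356 (triangles). Both are ratios of co-10 to 35S:CO background. The legend calls the result the co-10 depth, but sequencing depth was not known. The dashed line is the lowest value in the nuclear co-10 list, 4.28. CHI falls below it and the other 5 peaks stay above it. Of all nuclear 35S:CO peaks, 80.2% would reach it with the ratio of 0.530 and 60.5% with 0.356.

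The count of genes with a peak depended on how near and how strong a peak had to be. With the summit inside the gene, 2 of the 9 genes were counted, against 4.28% of all genes. Within 500 bp it was 4 of 9, against 8.66%, and within 1000 bp 5 of 9, against 11.2%. Within 5000 bp and within 10000 bp the count stayed at 6 of 9, while the share of all genes grew to 26.5% and 41.8%. When a summit counted only for its nearest protein-coding gene, CHI and DFR dropped out, leaving 4 of 9 against 9.39%. The 9 genes are 1539 to 3272 bp long, and among the 13157 protein-coding genes in that range of lengths the share with a filtered summit within 3000 bp was 20.3%.

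The count also fell when peaks had to be stronger. When the −log10 q had to be 5 or more, 5 of the 9 genes had a peak, against 16.2% of all genes. At a limit of 10, MYB12 alone remained, 1 of 9 genes (11.1%), and the share over all genes was 10.7%. At that limit the share among the flavonoid genes was close to that of all genes. DFR, at 9.96, and FLS1, at 9.69, lay just below it.

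**Figure D3:**
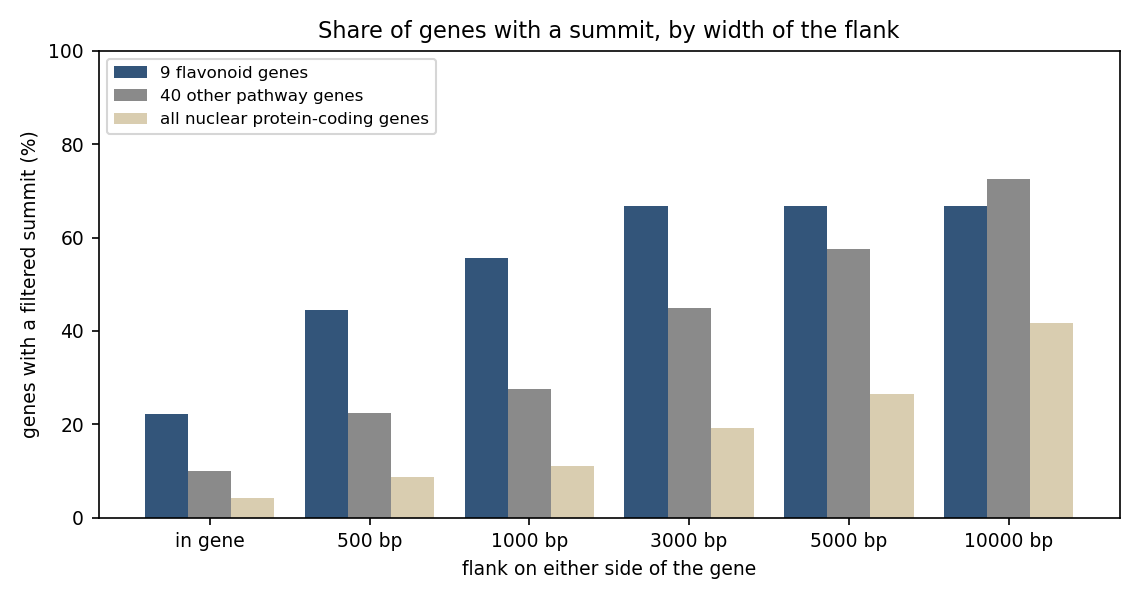
Percent of genes with a filtered summit inside the gene, or at most 500 to 10000 bp from it, for the 9 flavonoid genes (blue), 40 other genes of the pathway (grey) and all 27444 nuclear protein-coding genes (tan). The 9 genes reach 66.7% at 3000 bp and no more beyond it, while all genes reach 19.2% there and 41.8% at 10000 bp.

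The rest of the pathway was examined through 40 further genes, from phenylalanine to pigment transport. They too were chosen with earlier results of these data known. Of them, 18 (45.0%) had a filtered summit within 3000 bp, against 19.2% of all genes, which was not tested. None of the 40 had a co-10 summit in reach, from which nothing is read at a share of 0.619% over all genes. The median fold enrichment of their strongest peaks was 7.37, between 3.23 and 22.0. When the −log10 q had to be 10 or more, 13 of the 40 (32.5%) still had a peak, against 10.7% of all genes.

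Among 6 repressors of anthocyanin synthesis, 4 had a peak, where the share over all genes was 19.2%, and 2 of these had the highest fold enrichments of the 40 genes. The group is small and its count was not tested. Fold enrichment was 22.0 near CPC, a single-repeat MYB protein, although AT2G46420 lay nearer to that summit. LBD37, a LOB-domain repressor of anthocyanin and nitrate-response genes, held 2 summits inside the gene, at 17.2 and 18.8. MYBL2, a repressor of the MYB-bHLH-WD40 complex, had a summit 38 bp outside the gene at a fold enrichment of 11.4, like that of MYB12. The stronger of 2 peaks near LBD39, at 8.54, lay inside AT4G37550. MYB4 and LBD38 had no peak in reach.

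Enzymes upstream and downstream of the 5 described above were mixed. PAL2, a phenylalanine ammonia-lyase at the entry to the pathway, had a peak of 4.85 at 58 bp and a stronger one of 12.3 at 2708 bp, which lay nearer to AT3G53270. The C4H peak, at 6.31, was nearer to NET4B. Of the 8 entry genes 3 had a peak, against 19.2% of all genes, a count too small to set apart from that share. LDOX, the enzyme after DFR, had a peak of 8.05 at 721 bp, and that summit was 56 bp from its neighbour PGR5-LIKE A. UGT78D2, a flavonoid glucosyltransferase, had a summit inside the gene at 9.52, while the summit of the UGT75C1 peak, at 7.35, lay inside AT4G14100. None of the 3 transport genes had a peak in reach, from which nothing is read at a share of 19.2% over all genes.

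Of 8 genes of the MYB-bHLH-WD40 group, which holds relatives of PAP1 and its partners, 2 had a peak, a share close to the 19.2% of all genes. TTG1 had a summit inside the gene at 5.97, and MYB114 had a peak of 7.39 at 1819 bp. The bHLH genes TT8, GL3 and EGL3 had none in reach. The light-response factor HYH had a peak of 9.93, and its homologue HY5, an activator of CHS and outside the 12 strongest genes, had one of 5.16, close to that of CHS. The remaining 5 genes with a peak lay between 3.23 and 5.47.

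**Figure D4:**
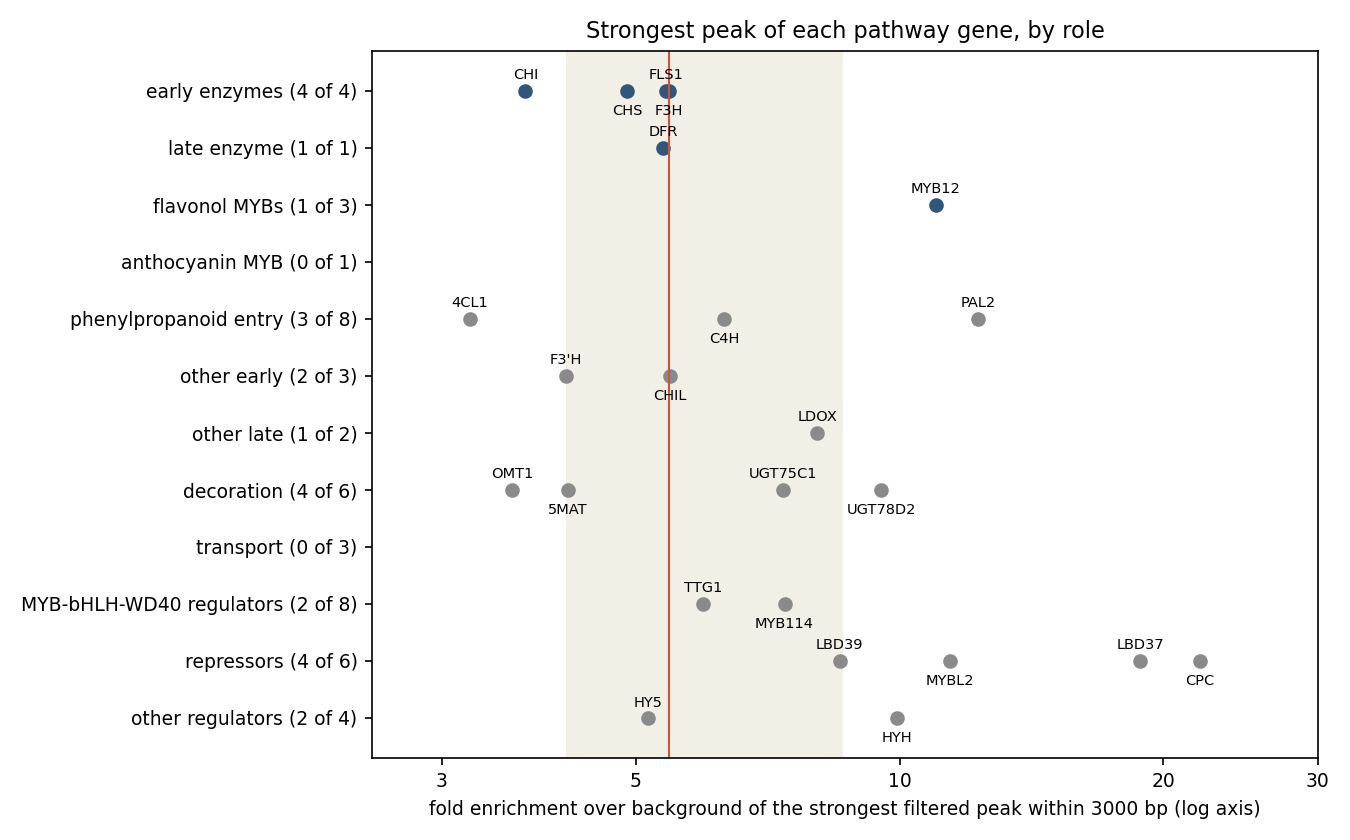
Fold enrichment (log axis) of the strongest filtered peak within 3000 bp of each of the 9 flavonoid genes (blue) and of 40 other pathway genes (grey), grouped by role, with the number of genes that have a peak out of all genes of the role. The line marks the median of nuclear filtered peaks, 5.45, and the shading their interquartile range, 4.17 to 8.59. The 5 enzymes of the upper rows lie at or left of the line, and MYB12, PAL2, MYBL2, LBD37, CPC, UGT78D2 and HYH lie to the right of the shading.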

How the data were processed

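Per the submitters' processing notes, the tools included Bowtie and MACS2 and the build was TAIR10. Versions, thresholds and the roles of the tools are not given in the sources used here. The authors deposited 3 narrowPeak lists without headers, each with a fold enrichment (a ratio), a −log10 p-value, a −log10 q-value, a score equal to the whole part of 10 times the −log10 q, and a summit offset in bp. The filtered list is a subset of the 35S:CO list, no list belongs to a single sample, and sequencing depth per sample is unknown.

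Summits were the start plus the offset, counted from 1. Genes came from a RefSeq table of assembly TAIR10.1, to which all 9 members and 40 further pathway genes matched by locus. As the build names differ and the table has no strand or exons, no gene coordinates are printed. RefSeq symbols for CHS and CHI are TT4 and TT5. Pileup and background were recovered from (pileup + 1) / (background + 1) = fold and a Poisson p-value of a count above the pileup, which solved 3306 of 3306 35S:CO peaks and 379 of 380 co-10 peaks within 0.001 of the deposited −log10 p. Assignment and recovery were tested on simulated data. All 8 samples fell into 4 groups of 2, and no test was run, because no list is given per replicate. PCR duplicates are not independent, so intervals cover counting error only.

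The members and gene lists were chosen with earlier results of these data known. Named genes were all 9 members, the 12 other pathway genes with the strongest peaks, and genes nearer to a member's summit. Pathway genes without a peak, HY5, the neighbours of pathway genes and the genes at peaks beyond 3000 bp were named after their values were seen. Promoter sequences and motifs were not analysed here. Python 3.11.15, numpy 2.4.6, pandas 2.3.3, scipy 1.17.1 and matplotlib 3.10.9 were used.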

Additional observations from a re-analysis of the deposited data

How the results depend on the processing

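No paired analysis was possible because the deposited lists are given by genotype and hold nothing for single replicates, which also prevented leaving out replicates. The promoter motif counts were not run. Of 40 alternatives, 34 moved the value by 1.5 times or less and 6 by more. In 6 of the 34, a stricter setting could only leave a co-10 count or a shared count of 0 at 0, so they say nothing about stability. The 34 also include the 2 alternatives chosen after seeing the data (a flank of 10000 bp, and the median without MYB12, 5.37). With a −log10 q of at least 10, the count of members was 1 in both the 35S:CO and the filtered list. Of all genes, 10.7% had such a filtered peak. The median fold enrichment of the members was then 11.0, that of MYB12, since fewer peaks pass that limit. The 18 other pathway genes became 9 with a flank of 500 bp (22.5%, against 8.66% of all genes). They became 11 with 1000 bp (27.5%, against 11.2%) and 11 with the nearest gene only (27.5%, against 9.39%). Both shares fall by construction of narrower reach, and their difference was not tested. The low pileups of the enzyme peaks, 14 to 23 fragments, limit any order among them. The lower background of the co-10 list limits what the absence of a co-10 peak as weak as that of CHI shows.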

Other observations

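Some pathway genes just outside 3000 bp had a peak nearby. Within 5000 bp, 23 of the 40 other pathway genes had a filtered summit, against 18 within 3000 bp. The share of all genes also rose, from 19.2% to 26.5%. The anthocyanin regulators MYB113, MYB114 and PAP2 (MYB90), relatives of PAP1, lie side by side on chromosome 1. A single peak with a fold enrichment of 7.39, chr1:24760561-24761041, had its summit 1819 bp from MYB114, 3169 bp from PAP2 and 6011 bp from MYB113, so the limit alone decided that MYB114 was counted and PAP2 was not. TT19, a glutathione transferase needed for pigment transport, was 3181 bp from a peak of 4.54. PAL1 was 3789 bp from a peak of 8.01, TT16 4143 bp from one of 5.21 and the bHLH gene GL3 4496 bp from one of 3.79.

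MYB12 lay among several peaks. Beyond the one at its end, summits lay 6735 and 8237 bp away on the lower-coordinate side, with fold enrichments of 4.65 and 16.6, and 7489 bp away on the other side, with 9.46. The summit at 6735 bp lay inside AT2G47440 and that at 7489 bp inside NDT1.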
